A study of Mus musculus with 2 samples.

Results

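The 169 clusters of Mbnl2 tags described here had at least 15 tags in *Mbnl1* KO quadriceps muscle and at most 2 in WT quadriceps. They come from a HITS-CLIP experiment, in which UV light fixes proteins to their RNA partners, RNase A trims the RNA, and an antibody, here mAb 3B4 against Mbnl2, pulls down the short fragments that are then sequenced as tags. The authors deposited 1 merged table of tags for 3 WT mice and 1 for 3 *Mbnl1*-/- mice, all 15 to 16 weeks old and labelled C57BL/6, while the methods name a mixed C57BL/129 background for the crosses of compound mutants. The *Mbnl1* allele lacks exon 3 in all tissues, and no other allele or treatment was given for either group. With the mice merged, no spread between animals can be computed, and every comparison below is between 2 libraries and carries no test. RNase A was used at a high and a low concentration, and the tables do not say which tags came from which.

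Tags whose mm9 reference sequence was at least 70% one base were left out, which removed 44.0% of the WT and 17.0% of the KO tags on assembled chromosomes. The remaining 188766 WT and 392681 KO tags were joined into 402636 clusters, each a run of overlapping tags on one strand over both genotypes. Of the 840 clusters with at least 15 KO tags, 169 (20.1%) had at most 2 WT tags and are called sites. With tags of the same position counted once the rule gave 45 sites, with the same 5′ end counted once 23, and with the KO tags thinned at random to the WT number 6. The sites were thus selected on their KO and WT tag counts, so these counts and their ratios are a description only. The remaining 671 clusters, with 3 or more WT tags, are called shared clusters. In the opposite direction, with at least 15 WT and at most 2 KO tags, there were 3 clusters, in a library with fewer tags. All 10 fibre marker genes had tags in both libraries, 928 WT and 3276 KO in all, of which Ttn had 417 and 1510. The 5 fibroblast genes had 195 and 876, and of these Col1a1 had 464 KO tags, more than any fibre gene but Ttn. The endothelial genes had 33 and 100, the leukocyte genes 12 and 16, the adipocyte genes 1 and 18 and the nerve genes 6 and 14. The part of cells other than fibres in the sites of matrix genes, such as Col6a3 and Mmp2, was not tested.

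Mbnl proteins are zinc finger proteins that bind RNA at YGCY, where Y is a pyrimidine. In the nucleus they steer alternative splicing towards the adult pattern, and in 3′ UTRs they act on the localisation and stability of mRNAs. In myotonic dystrophy they are sequestered by expanded CUG or CCUG repeats. Mbnl1 is the main family member of adult skeletal muscle, and Mbnl2 is its close relative. The question addressed is where Mbnl2 tags appear in muscle that lacks Mbnl1 and are rare in WT muscle.

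The reference sequences (mm9) of chosen sites are printed 5′ to 3′ on the strand of the tags and centred on the KO summit, the place of highest KO tag depth. YGCY, that is TGCT or TGCC, and with C first CGCT or CGCC, is in capitals. The first set shows sites of 3′ UTRs, in windows of 30 nt, because 3′ UTRs held more sites than any other region.
Pfn2, chr3:57646053-57646082 (minus strand): tgtTGCTattgtgagatggatttcctttcg
Srp14, chr2:118301685-118301714 (minus strand): ggctagcTGCTttttttcctaccctattta
Mbnl2, chr14:120829919-120829948 (plus strand): tgtaatcttgcatagTGCTtgtgtcgtgtt
Mbnl1, chr3:60433461-60433490 (plus strand): cacccaccttcatcTGCCgaaaggacagtg
Pdlim5, chr3:141965533-141965562 (minus strand): acatagcttTGCTgcatctttatgttggag
Hipk3, chr2:104268794-104268823 (minus strand): tgtagtactcgttttTGCTtgttggtggtg
Kcnc4, chr3:107241227-107241256 (minus strand): caataaagacatccgagtgtccTGCTGCTc
Mef2c, chr13:83802421-83802450 (plus strand): aaTGCTgagataCGCTtagcacttgagttg
Serinc3, a site without YGCY in this window, chr2:163450508-163450537 (minus strand): atctgattaaaatgaaaagctcacttgaga

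The second set shows windows of 61 nt at sites in introns of muscle genes, where the summits lie side by side in Trdn.
Trdn, first site, chr10:33084982-33085042 (plus strand): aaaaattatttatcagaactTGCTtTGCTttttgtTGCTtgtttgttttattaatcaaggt
Trdn, second site, chr10:33085033-33085093 (plus strand): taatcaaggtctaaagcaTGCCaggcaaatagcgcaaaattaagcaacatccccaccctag
Ttn, chr2:76639576-76639636 (minus strand): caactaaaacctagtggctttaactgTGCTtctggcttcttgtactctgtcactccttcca

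The third set shows tandem repeats, which are short units copied head to tail. The YGCY of such a site comes from the unit being repeated, or is missing where the unit has none, as in Orc5.
Pds5b intron, chr5:151561829-151561889 (plus strand): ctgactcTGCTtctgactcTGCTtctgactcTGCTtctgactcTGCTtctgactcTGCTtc
intergenic site with TCTGCC repeats, chr10:23708426-23708486 (plus strand): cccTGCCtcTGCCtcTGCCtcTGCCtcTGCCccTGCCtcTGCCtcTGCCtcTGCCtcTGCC
intergenic site with TCTGCC repeats, chr19:25886283-25886343 (plus strand): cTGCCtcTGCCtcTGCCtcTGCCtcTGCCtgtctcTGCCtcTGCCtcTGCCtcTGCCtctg
Ptprs intron, chr17:56562385-56562445 (minus strand): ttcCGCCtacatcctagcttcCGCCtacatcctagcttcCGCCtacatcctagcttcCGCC
Orc5 intron, chr5:21999868-21999928 (minus strand): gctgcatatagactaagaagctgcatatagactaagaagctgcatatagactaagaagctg

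The last set pairs sites whose sequences occur at more than 1 place, so that the 2 members of each pair carry the same stretch.
1700020I14Rik, chr2:119427918-119427947 (plus strand): tgtaagcagtagTGCTtgatagcatattgt
its copy on chromosome 3, chr3:129208564-129208624 (minus strand): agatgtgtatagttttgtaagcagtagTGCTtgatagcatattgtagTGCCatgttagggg
mt-Co2, chrM:7086-7146 (plus strand): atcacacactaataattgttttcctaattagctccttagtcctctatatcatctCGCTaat
its copy on chromosome 1, chr1:24622270-24622330 (minus strand): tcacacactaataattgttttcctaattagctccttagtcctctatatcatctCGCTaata
n-R5s28, chr17:47985798-47985827 (plus strand): accctgaacgCGCCcgatctcatctgatct
its copy on chromosome 10, chr10:27672180-27672240 (plus strand): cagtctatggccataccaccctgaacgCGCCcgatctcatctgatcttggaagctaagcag

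The sites were small in both libraries. Their KO tags ran from 15 to 38 with a median of 17, and 109 of the 169 sites had 15 to 19, 51 had 20 to 29 and 9 had 30 to 38. WT tags numbered 0 at 24 sites, 1 at 55 and 2 at 90. All clusters with over 38 KO tags, 206 in number, were shared clusters. Over the sites together there were 3232 KO and 235 WT tags, a KO/WT ratio of 6.61 after scaling to the tags kept in each library (95% Clopper-Pearson interval 5.79 to 7.58, which covers counting error only), a value that the choice of sites fixes. A site with the median of 17 KO tags would have 8.17 WT tags at a scaled ratio of 1, and 4.87 at the ratio of 1.68 (1.61 to 1.75) of the 465 shared clusters with 15 to 38 KO tags. The ratio of a single site is imprecise. The Cul3 site, with 16 KO and 2 WT tags, had a ratio of 3.85 (0.904 to 34.5).

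**Figure D1:**
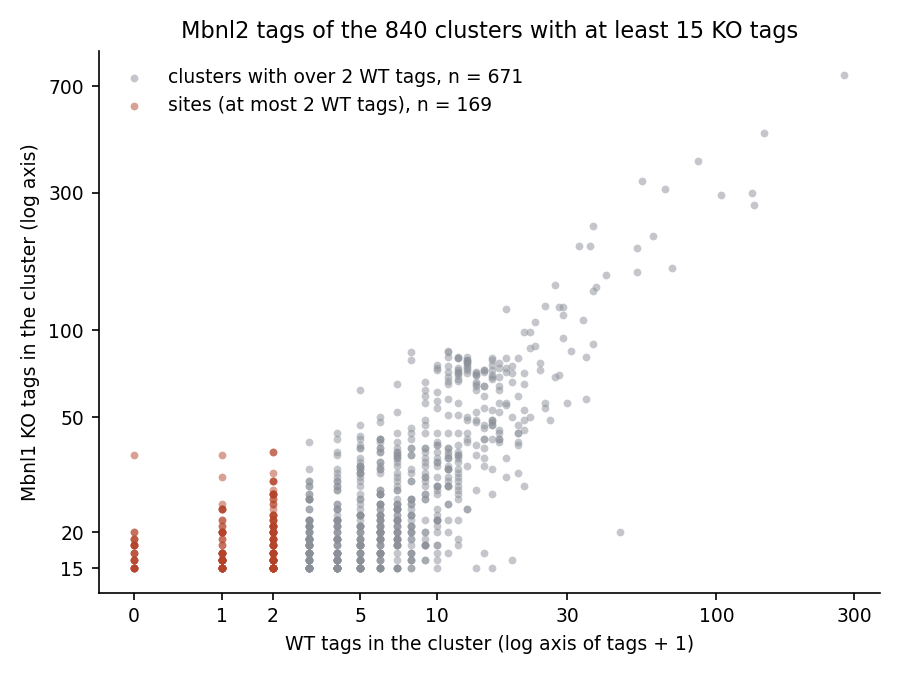
Each point is 1 of the 840 clusters with at least 15 KO tags, with its WT tags on the x axis (log axis of tags + 1) and its KO tags on the y axis (log axis). The 169 sites form the low-tag edge of 1 cloud, with 15 to 38 KO tags, and every cluster above 38 KO tags has 3 or more WT tags.

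At the limits of the rule the members and their neighbours had nearly the same counts. The 36 sites with exactly 15 KO tags included, by position, an intergenic site on chromosome 1 (15 KO, 1 WT), Tns1 (15 and 2), Naca (15 and 2), Ppp3r1 (15 and 2) and Snord118 (15 and 1). The 38 clusters just outside, with 14 KO tags, included Tram1 (2 WT tags), Cd24a (0), Ank3 (2) and 2 intergenic clusters on chromosome 10 (2 and 0). At the WT limit, 90 sites had 2 WT tags and 80 clusters had 3. Those with the most KO tags just inside were near D630036H23Rik (38), in n-R5s28 (38), B230120H23Rik (32), Col6a3 (30) and 1700020I14Rik (30), and just outside near 2900097C17Rik (41), in n-R5s109 (33), Hipk3 (30), mt-Co2 (30) and Prkaa2 (29). Several genes, such as Hipk3 and mt-Co2, therefore hold clusters on both sides of the limit.

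Tags that share a position can be separate molecules or copies of one that escaped the removal of duplicates, and the tables do not tell these apart. The KO tags of a site occupied 6 to 31 distinct positions, with a median of 12, against 15 at the shared clusters of the same KO range, whose median of KO tags was 21 against 17. At 39 of the 169 sites and at 249 of these 465 shared clusters the distinct positions numbered 15 or more. Tags that rested on a single read made up a median of 32.1% of the KO tags of a site and 33.3% of those of a shared cluster in that range.

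The 3′ UTR was the most frequent region. By the annotated region of the summit, 85 of 169 sites (50.3%, 42.5 to 58.1) lay in a 3′ UTR, 38 (22.5%) were intergenic, 14 (8.28%) lay in an exon of a noncoding transcript, 14 in an intron, 9 (5.33%) in coding sequence and 9 antisense to a gene. No site lay in a 5′ UTR, for which the exact upper bound is 2.16%. The 3′ UTR share was 31.1% of the 45 sites left with tags of the same position counted once, and 26.1% of the 23 left with the same 5′ end counted once. Among the shared clusters of the same KO range, 52.5% (47.8 to 57.1) lay in 3′ UTRs, 18.1% (14.7 to 21.9) were intergenic and 9.25% were intronic. The intervals of the 2 groups overlapped in every region. Of the 38 intergenic sites, 15 lay within 10000 nt past the annotated 3′ end of a gene on the same strand, such as the one 4175 nt past Lnp (17 KO, 1 WT), which encodes a protein of endoplasmic reticulum junctions.

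**Figure D2:**
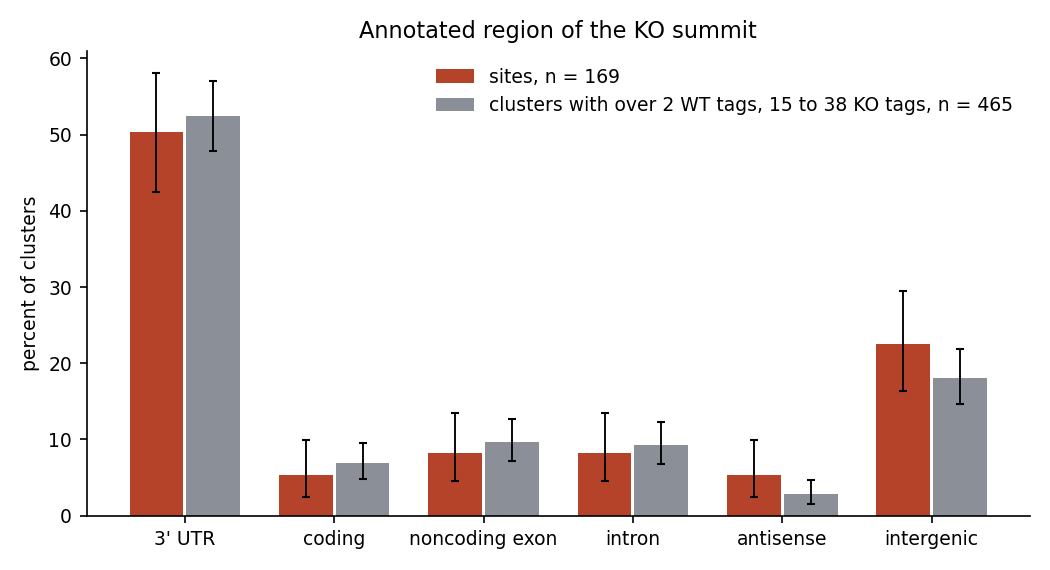
The bars give the percent of the 169 sites and of the 465 shared clusters with 15 to 38 KO tags whose KO summit lies in each annotated region, with exact 95% intervals for counting error. The 3′ UTR holds 50.3% of the sites and 52.5% of the shared clusters, and the intervals overlap in all 6 regions drawn.

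Within 3′ UTRs the sites had no preferred end. The 85 summits lay a median of 689 nt past the stop codon and 613 nt before the end of the UTR, in UTRs with a median length of 1700 nt. At the 320 shared clusters in 3′ UTRs these medians were 673, 700 and 1660 nt. The summit was nearer to the stop codon at 41 sites and nearer to the end of the UTR at 44.

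The flanks of the sites held WT tags about as often as those of the shared clusters. They were taken as the 200 nt on either side, leaving out the tags of every cluster with at least 15 KO tags. Neighbouring sites were themselves chosen for few WT tags, and neighbouring shared clusters for 3 or more. This choice was made after seeing the data. The flanks of the sites had 1574 KO and 347 WT tags, a scaled ratio of 2.18 (1.94 to 2.46). Around the shared clusters of the same KO range they had 4432 and 998, a ratio of 2.13 (1.99 to 2.29), and the intervals overlapped. No WT tag lay in the flanks of 62 sites (36.7%, 29.4 to 44.4) and of 35.7% (31.3 to 40.2) of the shared clusters in that range. With all tags kept, the ratio was 2.31 (2.12 to 2.53) around the sites and 1.90 (1.82 to 1.99) around these shared clusters. With only the tags of sites left out, it was 2.16 (1.98 to 2.36) and 1.85 (1.77 to 1.93). The intervals did not overlap in either case, so the similar ratios above hold only with the tags of shared clusters left out too. Tag counts within 200 nt of single sites, here and in what follows, are with all tags outside the cluster kept. Of the 24 sites with 0 WT tags, 12 had WT tags within 200 nt.

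The genes that hold the sites had a higher ratio elsewhere too, and so had genes with shared clusters. On their own strand, 109 genes hosted 122 of the sites, and 100 of these genes were protein-coding. Of the 109, 40 also held a shared cluster. Outside every cluster with at least 15 KO tags, the 88 host genes with at least 20 remaining tags had a median scaled ratio of 1.99 (quartiles 1.47 and 2.65), and it was above 1 at 83 of them. The 189 genes with a shared cluster and no site had a median of 1.99 too (1.55 and 2.49), with 182 above 1. Over all 3317 genes with as many tags the median was 1.44 (0.961 and 2.07), with 74.0% above 1. Both groups of genes were chosen for a cluster with many KO tags, and this way of counting was chosen after seeing the data. In these merged libraries more Mbnl2 on an RNA and more of that RNA cannot be told apart, and no RNA levels were used here.

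Of the leading 3′ UTR sites, those given next had 2 WT tags each. B230120H23Rik, listed by RefSeq (GRCm38.p6) as a synonym of Map3k20, a stress-activated kinase, had 32 KO tags at chr2:72241496-72241605 (ratio 7.69, 1.96 to 66.2). Pfn2, the actin-binding profilin 2, had 30 at chr3:57646043-57646100 (7.21, 1.83 to 62.3). Srp14, a subunit of the signal recognition particle, had 28 at chr2:118301654-118301759. These intervals are wide because 2 tags set their lower count. Mmp2, a secreted matrix protease, Grinl1a, listed as a synonym of Polr2m, and the first sites of Synpo2l and Ppp3ca had 27 KO tags each (6.49, 1.63 to 56.3). In Grinl1a the rest of the gene had 14 WT and 23 KO tags, a ratio of 0.79, which made it 1 of the few hosts below 1. Mat2a, which makes S-adenosylmethionine, had 25 KO tags.

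The leading sites outside 3′ UTRs were of mixed kinds. The 2 with the most tags had 38 KO and 2 WT tags each (ratio 9.13, 2.36 to 78.1), 1 of them 4782 nt past D630036H23Rik and 1 in n-R5s28, annotated as a 5S ribosomal RNA gene. Introns of Pds5b, which encodes a cohesin regulator, and of Ypel2 had 37 and 31 KO tags, each with 1 WT tag. Col6a3, a chain of collagen VI of the muscle matrix, had 30 KO and 2 WT tags in its coding sequence, with 70 KO and 25 WT tags within 200 nt. The nuclear noncoding RNA Malat1 had 26 and 2 at its site, against 963 and 363 in the rest of the gene (ratio 1.28). The remaining ones were the mitochondrial tRNA gene mt-Tr (26 and 2), an intergenic site 48 nt past Gm10925 (27 and 2), 1 past 2900097C17Rik (25 and 1) and 1 on chromosome 3 (25 and 2). All of these but Col6a3 and Malat1 have further exact copies of their summit sequence. Over all copies, mt-Tr had 53 KO and 10 WT tags (ratio 2.55, 1.28 to 5.62) and thus passed the limit of 2 WT tags. The site past D630036H23Rik had 62 and 4, n-R5s28 had 62 and 3, Gm10925 had 31 and 3 and the site on chromosome 3 had 47 and 4, all over the limit as well. Pds5b, Ypel2 and 2900097C17Rik stayed within it, with 1, 1 and 2 WT tags.

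A noncoding RNA held the most sites. 1700020I14Rik, listed by RefSeq as a synonym of Oip5os1, the long noncoding RNA also known as Cyrano, had 5 sites with 98 KO and 9 WT tags together. They had 30, 22, 16, 15 and 15 KO tags and 2, 2, 1, 2 and 2 WT tags. The rest of the RNA had 383 KO and 103 WT tags (ratio 1.79). Of these sites, 2 have a second copy of the summit sequence. Other genes with more than 1 site had 2 each, among them Synpo2l, Ppp3ca, Trdn, mt-Co2, Cap2, Myh4, Gstm1 and Mef2c.

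Mbnl transcripts themselves were among the hosts. In the 3′ UTR of Mbnl2 a site at chr14:120829911-120829976 had 24 KO tags and 1 WT tag (ratio 11.5, 1.88 to 474), with a TGCT at its summit. Outside the site the ratio of Mbnl2 was 1.67. In the 3′ UTR of Mbnl1, 195 nt before its end, a site had 15 KO tags and 0 WT tags. The 0 WT tags allow up to 3 tags, or 15.9 per 1000000, so the ratio was at least 2.4 for the KO tags as counted. The exact interval, which also covers the counting error of the KO tags, begins at 1.72. Within 200 nt of it lay 95 KO and 13 WT tags, and the rest of Mbnl1 had 435 and 99 (2.11). Tags of the Mbnl1 3′ UTR do not check the knockout, because the allele removes another exon. Of the 24 annotated genes that the study names as splicing targets or as gaining Mbnl2, 3 held a site: Mbnl1, Mbnl2 and Ttn. These 3 sites are 12% of the clusters with at least 15 KO tags in the listed genes, against 18.6% over all genes.

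Sarcomere and Z-disc genes held 7 sites in 5 of 53 listed genes, which is 18.4% of their clusters with at least 15 KO tags and near the 18.6% over all genes. Synpo2l, an actin-associated Z-disc protein, had 3′ UTR sites with 27 and 23 KO tags and 2 WT tags each, 13 WT and 44 KO tags lying within 200 nt of the first. Myh4, the fast myosin heavy chain of type IIB fibres, had 2 coding sites, with 21 and 16 KO tags and 2 WT tags each. The summit sequence of the first Myh4 site has 5 copies, all on chromosome 11, with 30 KO and 5 WT tags in all (ratio 2.88, 1.11 to 9.52). An intron of Ttn, the giant spring of the sarcomere, had 21 KO tags and 1 WT tag (10.1, 1.62 to 417), 682 nt from the nearest exon, while the rest of Ttn had 1489 and 416 (1.72).

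In the same list, 2 sites had 0 WT tags, and they are named for that, after their values were seen. Pdlim5, a Z-disc scaffold, had 19 KO tags in its 3′ UTR (ratio at least 3.04, interval from 2.24), and 49 KO and 8 WT tags lay within 200 nt of that cluster. Cmya5, or myospryn, had 18 KO tags in its coding sequence (at least 2.88, interval from 2.11), beside 43 KO and 18 WT tags within 200 nt. Both sites thus had WT tags close by.

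Calcium handling genes held 6 sites in 4 of 41 listed genes, 31.6% of their 19 clusters. They were Ppp3ca, the catalytic subunit of calcineurin (27 and 22 KO tags, 2 WT tags each), Trdn, which tethers calsequestrin to the ryanodine receptor (24 and 20 KO tags, 2 WT tags each), Srl, a calcium-binding protein of the sarcoplasmic reticulum lumen (18 and 2), and Ppp3r1, the regulatory subunit of calcineurin (15 and 2). The Trdn sites were adjacent, at chr10:33084993-33085032 and chr10:33085034-33085114 in the same intron, 1184 and 1235 nt from the nearest exon by their summits. Together they had 44 KO and 4 WT tags. Joined into a single cluster they would be over the limit of 2 WT tags, so both are sites only because their tags do not overlap. The first carries 3 YGCY in 61 nt. A share over 19 clusters rests on few clusters, and nothing particular to the list is read from it.

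**Figure D3:**
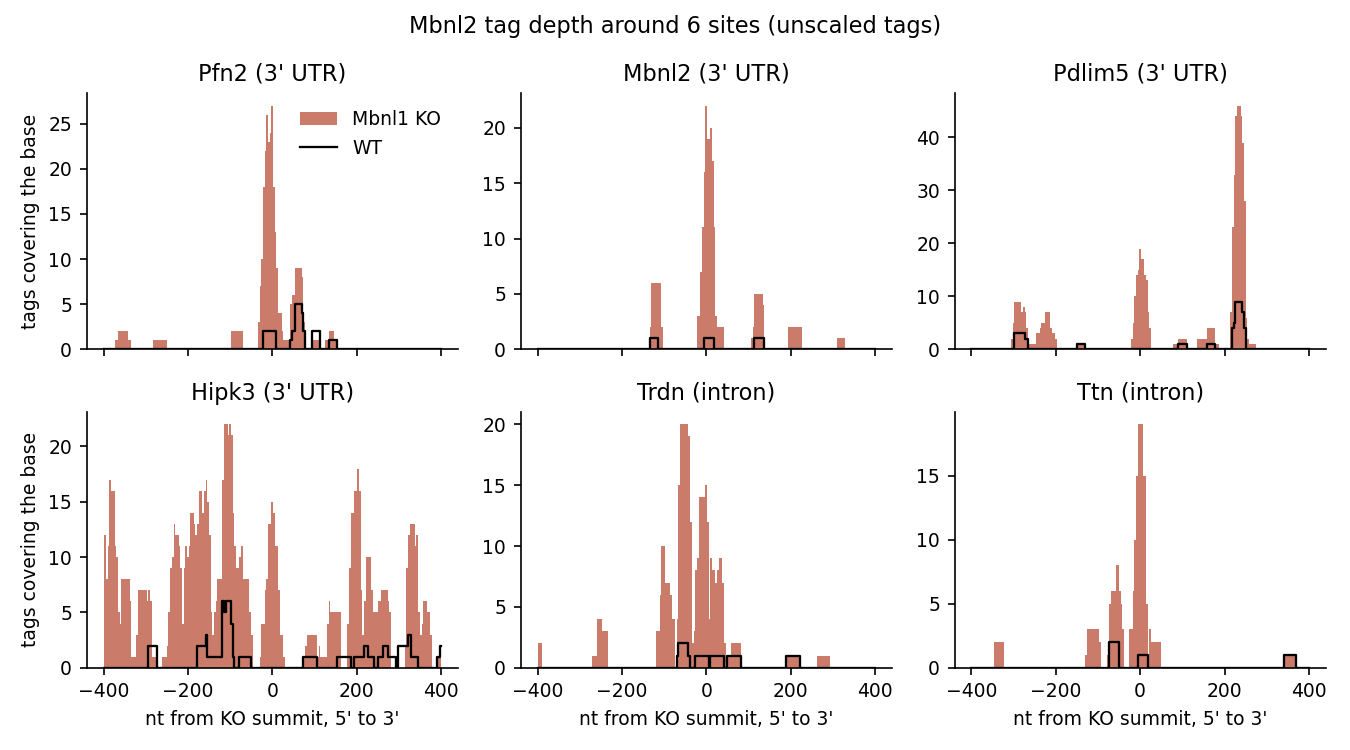
Each panel gives the unscaled number of KO tags (filled) and WT tags (line) covering each base against the distance from the KO summit, in nt, for the leading site of Pfn2, Mbnl2, Pdlim5, Hipk3, Trdn and Ttn. The WT line stays at or near 0 at the summits, and rises at neighbouring clusters, as in Pdlim5 and Hipk3.

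The other lists held few sites. Kcnc4, a voltage-gated potassium channel, had the single site of the ion channel list (23 KO, 2 WT), and no other tag of either library lay within 200 nt of it. Besides Mbnl1 and Mbnl2, the list of RNA-binding proteins had Qk, the splicing regulator quaking (16 and 2). Mef2c, a transcription factor of muscle, had 2 sites in its 3′ UTR with 17 and 16 KO tags and 1 WT tag each, the second 19 nt before its end. The signalling list had Hipk3, a protein kinase (15 and 0), Phtf2 (15 and 2) and Ppp2r3a, a regulatory subunit of protein phosphatase 2A (15 and 1). Around the Hipk3 site 119 KO and 15 WT tags lay within 200 nt.

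Cul3, a scaffold of ubiquitin ligases, and Asb11, a substrate receptor of such ligases, had 16 KO and 2 WT tags each. Of the nuclear noncoding RNAs, Neat1, the core RNA of paraspeckles, had 15 and 2 beside the Malat1 site. The metabolism and mitochondria list held 0 sites among 17 clusters, and the membrane skeleton and adhesion list 0 among 3. These counts are for the listed genes alone. Sites did lie in metabolic and mitochondrial genes outside the list, such as Atp5a1, a subunit of ATP synthase (23 KO, 2 WT), Mdh1, the cytosolic malate dehydrogenase (22 and 1), Got2, the mitochondrial aspartate aminotransferase (20 and 1), Hibadh (17 and 2), mt-Co2 and mt-Cytb (16 and 0), named after their values were seen. Over all genes 18.6% of the clusters were sites, and nothing particular to these lists is read from counts this small.

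YGCY was concentrated at the summits. In windows of 61 nt, 142 of 169 sites (84.0%) had at least 1 YGCY and 85 (50.3%, 42.5 to 58.1) had at least 2. The same windows moved 200 nt upstream and downstream had at least 2 in 24.3% and 16.6% (11.3 to 23.0). In all there were 334 YGCY at the summits against 165 upstream and 137 downstream. The reverse complement, RGCR (AGCA or AGCG, and with G first GGCA or GGCG, on the tag strand), which has the same GC content, occurred 73 times at the summits and 95 times upstream. Between 10 nt before and 9 nt after the summit, YGCY stood at 4.85 per 100 positions.

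The shared clusters gave nearly the same picture. At least 2 YGCY were found at 51.7% (47.9 to 55.6) of their summits, and 5.27 per 100 positions at the centre. In the KO range of the sites 265 of 465 summits did (interval 52.3 to 61.5%), a range that overlaps that of the sites.

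**Figure D4:**
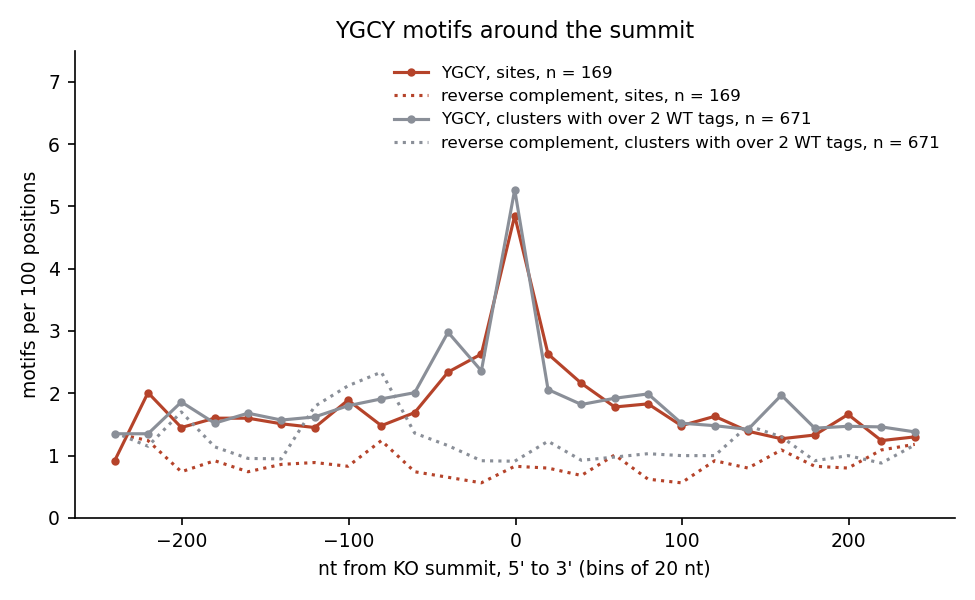
The lines give YGCY (solid) and its reverse complement (dotted) per 100 positions in bins of 20 nt around the KO summit, 5′ to 3′ along the RNA, for the 169 sites and the 671 shared clusters. Both solid lines peak in the central bin, at 4.85 and 5.27, and the dotted line of the sites is at 0.828 there.

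Among all words of 4 letters, counted on the tag strand with overlaps between words, TGCT gained most at the summits of the sites over the mean of the flanks (186 against 74.0), followed by GCTT (157 against 49.5, or 3.17-fold) and CTGC (167 against 69.0). TGCT, GCTT and CTGC led at all 671 shared clusters as well, in the same order. At the 465 shared clusters of the same KO range TTGC ranked 3 and CTGC 4. TGCC, another YGCY, ranked 7 at the sites (106 against 52.5), 18 at these 465 (176 against 128.0) and 65 at all 671 (214 against 183.5). At the 112 sites whose summit sequence has a single copy in the genome, its rank was 103 (32 against 31.5), and at the single-copy shared clusters it was 26 (137 against 98). GCTT was in the window of 103 sites (60.9%, 53.2 to 68.3), in 22.5% of the upstream and 25.4% of the downstream windows, and at 56.8% (52.1 to 61.3) of the shared summits in the KO range. TGCT and GCTT overlap in TGCTT, which the Srp14, Mbnl2 and Hipk3 sequences above contain.

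A group of repeats carried 66 of the 106 TGCC at the summits. At 9 sites (5.33%, 2.46 to 9.87) the window held TCTGCC 3 or more times, counted without overlap on the tag strand, against 1 of 671 shared clusters (0.149%, 0.00377 to 0.828). This word was chosen after the sequences were seen. These 9 sites had 146 KO and 8 WT tags of their own, and 4 to 10 YGCY each. The summit sequence of 8 of them has exact copies elsewhere, and over all copies 6 of these 8 had 24 to 46 WT tags, with ratios of 3.24 to 6.32. They lay in introns of Csmd2 and Hs6st3, antisense to Htr2c, and at 6 intergenic places. From 46.7 to 73.7% of their KO tags rested on a single read, above the median of 32.1% over all sites. Each of these windows shares at least 20 nt with another of them, so they are not separate sequences.

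The uniqueness of the sequence differed sharply by region. The 25 nt at the summit occurred once on the assembled chromosomes, on either strand and without mismatch, at 112 sites and more often at 57 (33.7%, 26.6 to 41.4). The share was 30.1% (26.0 to 34.5) for the shared clusters of the same KO range. In 3′ UTRs 81 of 85 sites were single copy. Of the intergenic sites 26 of 38 were not, nor were 9 of 14 intronic, 7 of 9 antisense and 8 of 14 noncoding exon sites. Among the 112 single-copy sites the 3′ UTR share was 72.3% (63.1 to 80.4), against 69.9% (65.2 to 74.3) of the 415 single-copy shared clusters, and at least 2 YGCY were at 46.4% (37.0 to 56.1), against 54.2% (49.3 to 59.1).

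A tag from a repeated sequence can be placed at any of its copies, so WT tags were also counted over every exact copy. Of the 57 sites with more than 1 copy, 35 had over 2 WT tags in all and 22 kept to at most 2. At the intergenic site chr8:107532109-107532182, with 21 KO and 2 WT tags of its own, the 17 copies had 330 KO and 83 WT tags, a ratio of 1.91. For the site antisense to Htr2c, 0 WT tags of its own became 24 over 22 copies, beside 208 KO tags (4.17). The hairpin gene mmu-mir-689-2 went from 21 and 2 to 67 and 15 (2.15). With WT tags counted in this way, 134 sites met the limit of 2 WT tags.

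**Figure D5:**
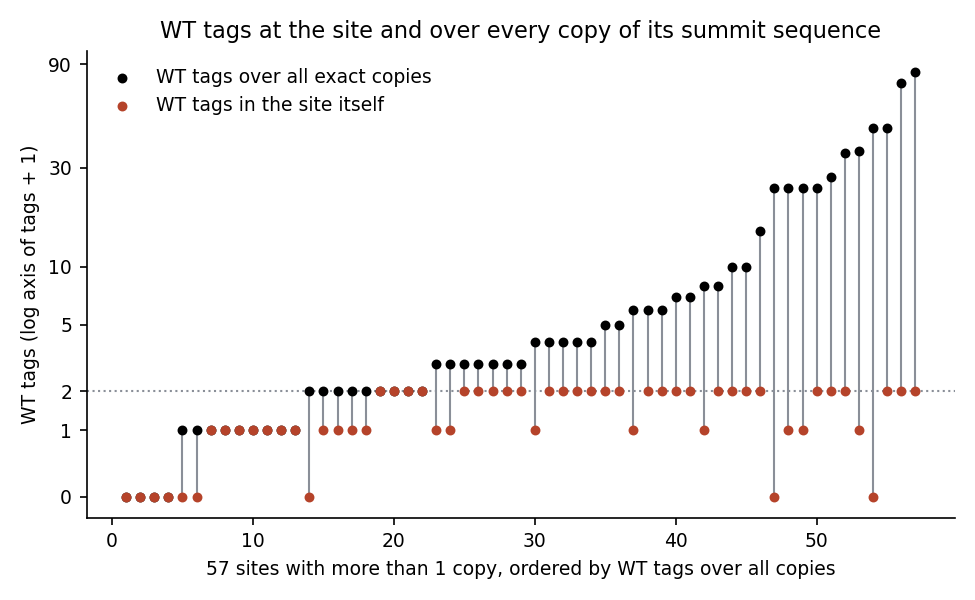
For each of the 57 sites with more than 1 copy of its summit sequence, the red point gives the WT tags in the site and the black point those over all exact copies, on a log axis of tags + 1. The dotted line is the limit of 2 WT tags, and 35 black points lie above it.

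The sites shared sequence with each other too. In 13 groups, 38 sites had at least 20 nt of their windows in common with another site, so the 169 sites make 144 separate sequences. One group had n-R5s28 and 3 intergenic sites whose windows share part of the 5S ribosomal RNA sequence without being identical, with 38, 24, 24 and 20 KO tags. The 1700020I14Rik site with 30 KO tags shared its sequence with an intergenic site on chromosome 3 with 25, and Mat2a with a site antisense to 1700030G06Rik, with 25 and 21. Both sites in mt-Co2, a mitochondrial subunit of cytochrome oxidase, recurred on chromosome 1, with 24 and 20 KO tags in the mitochondrial sites and 15 and 18 in the nuclear ones. In all, 7 sites had a copy on chromosome M. Tags that lie within a shared stretch fit both places.

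Some repeats kept their low WT count over all copies. The Orc5 intron is an array of 199 copies of the 25 nt on chromosome 5, in which Orc5 encodes a subunit of the origin recognition complex. The site itself had 20 KO and 0 WT tags, and all copies together 315 KO tags and 1 WT tag (ratio 151, 27.0 to 6000). At the site 65.0% of the KO tags rested on a single read, and the highest KO tag depth was 6. Its window holds no YGCY. The Ptprs intron had 20 KO and 0 WT tags over 14 copies, and the Pds5b intron 37 and 1 over 8 copies, with 64.9% of its KO tags resting on a single read. These arrays lie within 1 chromosome each.

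The single-copy sites with 0 WT tags numbered 15, and 10 of them were in 3′ UTRs. Besides Pdlim5, Mbnl1, Hipk3, Cmya5 and mt-Cytb given above, they included Serinc3 (20 KO tags), Gstm1 (18), Srebf1, the transcription factor of lipid synthesis (17), Osbp, an oxysterol-binding protein (17), and Golga4, a golgin (16). These 5 were named after their values were seen. At Osbp the 17 tags lay at 6 positions, and no site had fewer. No other tag of either library lay within 200 nt of the Osbp site, while 5 WT and 28 KO tags did at Serinc3.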

How the data were processed

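Quadriceps tables of Mbnl2 HITS-CLIP tags, 1 per genotype with 3 mice merged, were used. The authors filtered reads, aligned them to mm9 with BWA (version not given in the sources used here), removed potential PCR duplicates and deposited each unique tag with its count of collapsed reads, not normalized. The tables held 343554 WT tags from 5176203 reads and 476543 KO tags from 50329234 reads, and 337354 and 472915 lay on assembled chromosomes. How reads with several matches were placed is not stated.

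Tags were clustered and set against the mm9 genome and its GENCODE annotation (release M1) in Python 3.11.15 (pandas 2.3.3, numpy 2.4.6, scipy 1.17.1). Coordinates are 1-based. Region priority was 3′ UTR, 5′ UTR, coding, noncoding exon, intron, antisense, intergenic. Ratios are KO over WT tags times 0.481, the ratio of kept tags. Intervals are Clopper-Pearson at 95% and cover counting error only. Where WT was 0, ratios are bounds against 3 tags per library. No test between genotypes was possible with 1 table each. Clustering and motif counting were tested on simulated tags.

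The members and gene lists were chosen with earlier results of these data known. The genes named are those of the 20 sites with the most KO tags, of sites in genes the study names, of the 3 highest sites per list and of the 5 sites or clusters at each limit. Others, such as Pdlim5, Cmya5, Srl and Lnp, were chosen after their values were seen, among them those that illustrate copies or genes with 2 sites. Results for 1 gene are not reported here. Repeat annotation was not used here.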

Additional observations from a re-analysis of the deposited data

How the results depend on the processing

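The number of sites, 169, followed its thresholds: 635 with at least 10 KO tags, 60 with at least 20, 24 with 0 WT tags and 322 with at most 4. It was 45 with the same position counted once, 23 with the same 5′ end counted once, 87 with tags of at least 2 reads and 6 with the KO tags thinned at random to the WT number. The share in 3′ UTRs, 50.3%, was 41.7% with 0 WT tags, 31.1% with the same position counted once, 26.1% with the same 5′ end counted once and 16.7%, or 1 of 6 sites, after thinning. The share with at least 2 YGCY, 50.3%, was 35% with at least 20 KO tags, 63.3% in a wider window, 30.8% in a window of 31 nt and 61.5% over the whole cluster. The ratio of 6.61 was 9.72 with no single-base tag left out, 3.98 with at most 4 WT tags, 4.78 with tags of at least 2 reads, 10.7 after thinning and 13.8 with no scaling, and has no value with 0 WT tags. Among settings chosen after seeing the data, single-copy sites numbered 112 with a 3′ UTR share of 72.3%, and with at most 2 WT tags over all copies that share was 61.2%. The cause was not tested where the setting does not itself set the number. Other alternatives moved the number by less than 1.5 times or the shares and the ratio within their intervals, in 6, 11, 13 and 10 planned cases for the 4 results in the order given.

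No paired analysis was possible because each genotype is a single merged table. Leaving out a replicate needs separate tables per mouse, so it was not run. Counts of at most 2 WT tags limit every single ratio.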
